A study of Mus musculus with 12 samples.

Results

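Endothelial marker genes are genes whose RNA marks the cells that line blood vessels. The set described here holds 33 of them, chosen by symbol from the full deposited count table of 55536 rows. All 33 were found there and all 33 passed the filter on low counts, which left 19800 genes. They were measured in RNA from whole pancreatic islets of mice, the hormone-secreting cell clusters of the pancreas, which hold many capillaries. The choice of the set did not use measured values of these libraries, but it was made with earlier results of the data known.

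The study compared islets of control mice with islets labelled as lacking Ptpn2, a phosphatase known to dampen cytokine signalling. Control mice carry the genotype label PTPN2 fl/fl and the title PTPN2 +/+, so both alleles are floxed and no deletion is stated. The other mice are labelled PTPN2 -/- and Ptpn2-bKO in the protocol. They are called bKO-labelled below, since the labels name neither a Cre line nor its promoter. Mice of both genotypes were 16 weeks old, on a mixed background of C57BL/6J. Islets were left without cytokines or given a mix of IFN-gamma, IL-1beta and TNF alpha for 24 h, which are inflammatory cytokines. Each of the 4 groups has 3 libraries, and islets came from 3 mice of each genotype, so treated and untreated libraries of a genotype can share mice. Which libraries share a mouse is not given, and p-values measure the spread between these libraries. Isolated islets in culture have no blood flow.

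Islet capillaries are dense and fenestrated, with pores closed by diaphragms, so that hormones enter the blood quickly. Beta cells secrete VEGF-A, which acts through its receptor KDR (VEGFR2) on the endothelium and keeps the capillaries open and fenestrated. Endothelial identity is held by ETS factors such as ERG together with SOXF factors (SOX7, SOX17 and SOX18), while TIE receptors, VE-cadherin and sphingosine 1-phosphate signalling keep the vessel wall closed. Inflammatory cytokines are known to act on endothelial cells directly and to raise leukocyte adhesion molecules on them.

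Libraries held 47064061 to 107515565 counts. Ptpn2 itself had 30.3, 31.5 and 31.4 CPM (counts relative to the TMM-scaled size of a library) in untreated control islets. It had 36.7, 33.8 and 35.5 CPM in untreated bKO-labelled islets, so its RNA was not lower there. The labels do not name the floxed exons, so a count over the whole gene does not check the deletion. The islet hormones marked every group, with Ins1 at 41000 CPM ± 680 (SD, n = 3) in untreated control islets. The libraries labelled bKO with cytokines differ among themselves: replicate 2 held 8280 CPM of summed pericyte and stellate markers against 3390 and 3220 in the others, 90200 CPM of summed beta cell markers against 163000 and 148000, and 11100 CPM of ductal markers against 6510 and 8080. Values without it are given for several endothelial members and for medians of the set. They were not computed for the lists of other cell types.

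Cytokines lowered nearly the whole endothelial set in both genotypes. Summed over the 33 genes, the level was 1284, 1655 and 1672 CPM in the untreated control libraries and 504, 363 and 509 CPM with cytokines. The sum in bKO-labelled islets was 1455, 1443 and 1425 CPM without and 454, 657 and 574 CPM with cytokines. Every treated library lay below every untreated one. The members thus made up 0.135% to 0.181% of the counts in untreated and 0.0327% to 0.0632% in treated libraries. In whole islets, fewer endothelial cells and less of these RNAs per endothelial cell cannot be told apart.

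In control islets, 32 of the 33 genes fell with cytokines by edgeR's quasi-likelihood test at a Benjamini-Hochberg adjusted p under 0.05, none rose, and Ecscr was not called. Their median log2 change was -1.93, against -0.10 over all 19800 genes. Cytokines changed much of the transcriptome, since 33.9% of all genes were called lower and 26.8% higher. Of the members, 30 were at least 2-fold and 16 at least 4-fold lower, counting Plvap, whose rounded log2 change was -2. In 31 members every treated library was below every untreated one, as in 40.0% of all genes. With library totals alone in place of TMM scaling, 8998 genes were called lower and 3737 higher, against 6704 and 5298, and the median of all genes moved to -0.33. The members' median minus that of all genes was -1.83 under both scalings.

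In bKO-labelled islets, 30 members fell, Ecscr was called higher, and Cldn5 and Sox7 were not called. The median log2 change of the 33 was -1.56, against -0.06 over all genes, of which 33.6% were called lower and 28.8% higher. At least 2-fold falls were found in 26 members and at least 4-fold falls in 8. Flt4, at a rounded log2 change of -1, lay just short of 2-fold. Every treated library was below every untreated one in 30 members, as in 35.3% of all genes. With library totals alone, 8693 genes were called lower and 4000 higher, against 6647 and 5711, and the members' median minus that of all genes was -1.50 under both scalings. The 30 genes that fell here are among the 32 that fell in control islets. Across the 33 genes, the log2 changes of the 2 genotypes had a Pearson correlation of 0.944 and a Spearman correlation of 0.898, and across all tested genes the Pearson correlation was 0.895.

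**Figure D1:**
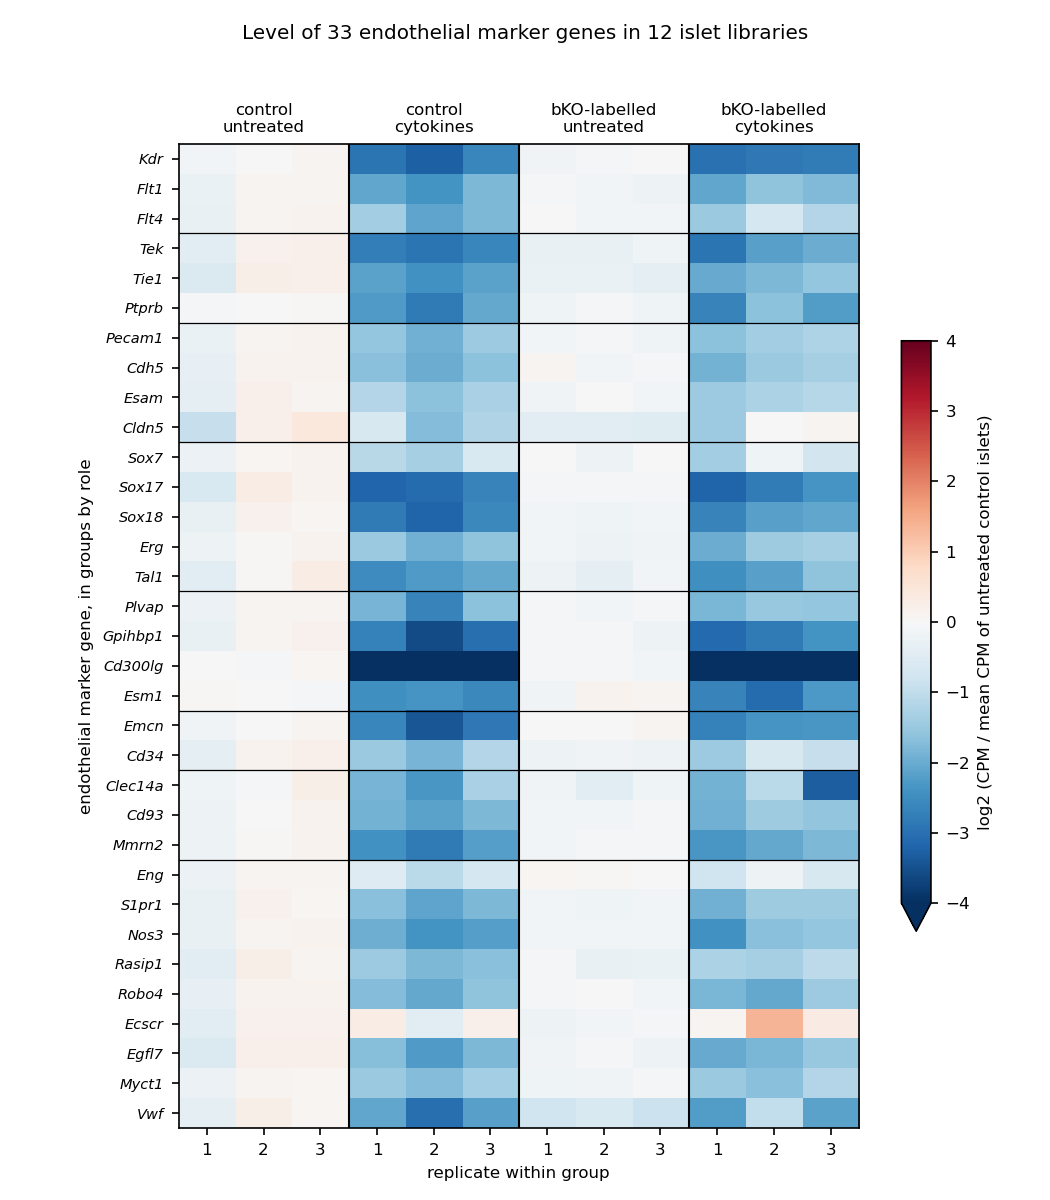
Level of each of the 33 endothelial marker genes (rows, grouped by role) in each of the 12 libraries (columns, by group and replicate), as log2 of the CPM over the mean CPM of the untreated control islets. Blue is lower and red higher, and values under -4 share the darkest blue. The treated columns are blue in nearly all rows of both genotypes, Cd300lg is the darkest row, and Ecscr is not blue in 5 of the 6 treated libraries.

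Members of the set moved together, so their promoters were read for the letters of motifs known for endothelial and cytokine-driven factors. RefSeq promoter windows of GRCm38.p6, from 250 bases before to 50 bases after the start site, matched 17 of the 33 members by symbol, with 22 windows. The windows below belong to the members with the 2 largest falls and the smallest fall in control islets among those with 1 window. Capitals mark AGGAAG, the core that ETS factors such as ERG bind, or its reverse complement. The Emcn window lies at chr3:137340828-137341127 on the plus strand, the Kdr window at chr5:75978406-75978705 on the minus strand, and the Eng window at chr2:32646345-32646644 on the plus strand. Each is written 5′ to 3′ in the direction of the gene.
Emcn: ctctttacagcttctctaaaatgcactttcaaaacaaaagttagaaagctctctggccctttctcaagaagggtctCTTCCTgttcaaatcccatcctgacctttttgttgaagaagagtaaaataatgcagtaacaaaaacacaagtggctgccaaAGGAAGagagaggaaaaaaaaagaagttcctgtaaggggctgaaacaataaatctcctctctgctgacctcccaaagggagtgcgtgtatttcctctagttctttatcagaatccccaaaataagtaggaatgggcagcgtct
Kdr: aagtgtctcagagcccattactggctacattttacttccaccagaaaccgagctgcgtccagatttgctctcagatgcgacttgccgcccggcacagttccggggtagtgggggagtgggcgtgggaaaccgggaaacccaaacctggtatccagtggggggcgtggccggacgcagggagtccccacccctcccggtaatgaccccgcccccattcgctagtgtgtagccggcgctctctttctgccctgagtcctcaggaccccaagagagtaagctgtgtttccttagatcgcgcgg
Eng: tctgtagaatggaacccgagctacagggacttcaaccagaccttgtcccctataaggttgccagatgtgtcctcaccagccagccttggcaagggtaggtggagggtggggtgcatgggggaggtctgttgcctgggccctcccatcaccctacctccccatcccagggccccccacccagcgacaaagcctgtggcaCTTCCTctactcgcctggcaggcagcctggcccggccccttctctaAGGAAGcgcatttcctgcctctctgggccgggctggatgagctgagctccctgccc
Emcn and Eng, at opposite ends of the range of falls, each held 2 matches. Kdr held none in this window. On either strand, AGGAAG was present in 11 of the 22 member windows (50%), which belong to 10 members, and in 35.4% of 32851 windows of the same length. The high-affinity ETS letters CCGGAAG were in 0 member windows and in 8.86% of all. The SOX letters AACAAT were in 3 (13.6%, against 10.7%) and the GATA letters AGATAA in 4 (18.2%, against 11.2%). For the cytokine-driven factors, the IRF letters GAAANNGAA were in 1 window (4.55%, against 8.56%) and the NF-kB letters GGGACTTTC in 0 (0.353% of all). These are matches of letters in short windows, shown as a description. CCGGAAG and AGGAAG share letters but cannot match at the same bases.

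All 3 VEGF receptors fell in both genotypes. Kdr (VEGFR2, the main signalling receptor for VEGF-A, chr5:75932827-75978458) had 136, 144 and 157 CPM in untreated control islets and 19.1, 15.1 and 23.7 CPM with cytokines. The groups did not overlap, and the log2 change was -2.92 (SE 0.14, adjusted p = 1.9e-08 by edgeR), a 7.55-fold fall. In bKO-labelled islets Kdr went from 133, 142 and 145 CPM to 18.3, 20.3 and 21.2 CPM, a log2 change of -2.81 (SE 0.14, adjusted p = 2.3e-08). Kdr was among the steadiest members between libraries, also in bKO-labelled replicate 2. Flt1 (VEGFR1, which binds VEGF-A tightly and also exists as a soluble trap) fell by 2.06 on the log2 scale in control islets (SE 0.16) and by 1.69 in bKO-labelled islets (SE 0.16). Flt4 (VEGFR3, the receptor for VEGF-C, also on fenestrated capillaries) fell less, with log2 changes of -1.74 (SE 0.21) and -1 (SE 0.21). Its treated bKO-labelled libraries held 15.6, 26.6 and 19.4 CPM and its treated control libraries 16.6, 10.1 and 12.5 CPM.

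The TIE receptors and their phosphatase fell as well. Tek (TIE2, the receptor for angiopoietins) had 10.9, 16.4 and 17 CPM in untreated and 2.16, 1.96 and 2.43 CPM in treated control islets, a log2 change of -2.76 (SE 0.23, adjusted p = 1.6e-06). Tek in bKO-labelled islets had 12, 11.9 and 13.1 CPM without and 1.93, 3.25 and 3.75 CPM with cytokines, a log2 change of -2.05 (SE 0.23). No treated library of either genotype reached an untreated one. Tie1, a co-receptor of TIE2, changed by -2.23 (SE 0.20) and -1.46 (SE 0.19), and Ptprb (VE-PTP, the phosphatase that restrains TIE2 and VE-cadherin) by -2.35 and -1.98 (SE 0.24 for both).

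Among junction and adhesion genes the 3 broad markers fell by similar amounts. Pecam1 (CD31, an adhesion molecule of endothelial contacts, chr11:106654217-106750628) had 70.2, 92.2 and 93.3 CPM in untreated and 29.2, 22.5 and 31.3 CPM in treated control islets. The bKO-labelled islets had 78.8, 82.1 and 76.2 CPM and then 27.3, 32.2 and 36.1 CPM. The treated libraries kept 32.4% and 40.3% of the untreated mean, with log2 changes of -1.63 and -1.31 (SE 0.15 for both). Cdh5 (VE-cadherin, the adherens junction protein that seals the endothelium) changed by -1.76 and -1.53 (SE 0.17 for both), and Esam, an adhesion molecule at tight junctions, by -1.36 and -1.18 (SE 0.15 for both).

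Cldn5, the main tight junction claudin of endothelium (chr16:18776847-18778262), behaved less uniformly and is a low gene, with 51 to 367 counts per library. It had 1.74, 3.79 and 4.38 CPM in untreated and 2.11, 1 and 1.42 CPM in treated control islets, so the groups overlapped. The log2 change was -1.14 (SE 0.42, adjusted p = 0.034), and without single libraries it was between -1.46 and -0.88, with the adjusted p above 0.05 in 4 of 12 such fits, the largest 0.128. In bKO-labelled islets it had 2.46, 2.44 and 2.34 CPM without and 1.2, 3.23 and 3.55 CPM with cytokines. The log2 change there, 0.15 (95% interval -0.76 to 1.06, adjusted p = 0.773), was not called, and it was 0.04 without treated replicate 2, -0.11 without treated replicate 3 and -0.07 with library totals alone.

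The 5 transcription factors all fell in control islets, but by different amounts. Sox17 (needed for arterial endothelium) had 6.31, 12 and 10.8 CPM in untreated and 1.08, 1.16 and 1.52 CPM in treated control islets, a log2 change of -2.96 (SE 0.26, adjusted p = 2.4e-06), and -2.66 (SE 0.26) in bKO-labelled islets. Sox18, of the same SOXF family and known for lymphatic development, changed by -2.86 (SE 0.19) and -2.15 (SE 0.18). Sox7, the third SOXF gene, stood apart from both: it had 6.99, 8.7 and 9.16 CPM in untreated and 3.86, 3.31 and 5.44 CPM in treated control islets, a log2 change of -0.98 (SE 0.27, adjusted p = 0.00719). Its level in bKO-labelled islets was 8.29, 7.23 and 8.4 CPM and then 3.18, 7.34 and 5.03 CPM, so that replicate 2 overlapped the untreated libraries. The log2 change, -0.62 (adjusted p = 0.0605), was not called there, whereas without replicate 2 it was -0.90 (adjusted p = 0.00411).

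Erg, the ETS factor of mature endothelium, changed by -1.66 (SE 0.17) in control and -1.40 (SE 0.17) in bKO-labelled islets. Tal1, a factor of blood and endothelial development and the lowest member per kilobase, had 2.18, 3.07 and 3.63 CPM in untreated and 0.514, 0.619 and 0.722 CPM in treated control islets. Its log2 changes were -2.26 and -1.81 (SE 0.25 for both), and its groups did not overlap in either genotype. An RNA annotated as a separate gene shares 804 exonic bases with Sox17, and the strand used in counting is not given, so part of that gene's reads is uncertain.

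The genes of the capillary surface held the largest fall of the set. Cd300lg (nepmucin, a mucin-like molecule of capillary endothelium, chr11:102041509-102055620) had 7.55, 7.38 and 8.04 CPM in untreated control islets and 0.199, 0.103 and 0.361 CPM with cytokines. The bKO-labelled islets showed the same, with 7.3, 7.48 and 7.1 CPM without and 0.141, 0.363 and 0.201 CPM with cytokines. The treated libraries held 6 to 20 counts each, against 440 to 674 in untreated ones, and kept 2.89% and 3.22% of the untreated mean. The log2 changes were -5.21 (SE 0.35, adjusted p = 2.4e-07) and -4.90 (SE 0.35, adjusted p = 3.5e-07).

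Gpihbp1, which carries lipoprotein lipase to the capillary surface, had 7.85, 10.4 and 10.8 CPM in untreated and 1.49, 0.805 and 1.2 CPM in treated control islets. Its log2 changes were -3.07 and -2.66 (SE 0.24 for both). Plvap, the protein of fenestral diaphragms, was the most abundant member per kilobase of exon, at 65.6 CPM per kb ± 8.9 (SD, n = 3) in untreated control islets. It had 110, 141 and 140 CPM in untreated and 35.5, 20.5 and 41.9 CPM in treated control islets, with log2 changes of -2 and -1.56 (SE 0.21 for both). Esm1 (endocan, a secreted proteoglycan of VEGF-stimulated tip cells) changed by -2.46 in control and -2.68 in bKO-labelled islets (SE 0.16 for both). It was the 1 member whose estimated fall was larger in bKO-labelled islets, and that difference was not called (-0.23, adjusted p = 0.697).

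The sialomucins of the endothelial surface diverged. Emcn (endomucin, typical of capillaries and veins) had 37.8, 42 and 45.3 CPM in untreated and 6.8, 3.86 and 5.72 CPM in treated control islets, and 42.1, 41 and 44.6 CPM and then 6.47, 8.16 and 8.27 CPM in bKO-labelled islets. The log2 changes were -2.94 (SE 0.18, adjusted p = 1.3e-07) and -2.48 (SE 0.18, adjusted p = 3.8e-07). Cd34, which also marks blood progenitors and some stromal cells, changed by -1.48 and -0.78 (SE 0.22 for both), with 12, 20.9 and 17.3 CPM left in the treated bKO-labelled islets.

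CD93 and CLEC14A are related lectin-domain receptors that bind the matrix protein multimerin 2 (Mmrn2), and all 3 genes fell. Cd93 changed by -1.93 (SE 0.14) and -1.54 (SE 0.13) and Mmrn2 by -2.47 and -1.97 (SE 0.17 for both). Clec14a had 1.72, 3.02 and 0.648 CPM in the treated bKO-labelled islets, the widest spread of the 3 genes, and its log2 changes were -1.78 and -1.58 (SE 0.41 for both, adjusted p = 0.00262 and 0.00551).

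Of the 9 genes of signalling, guidance and secretion, 8 fell in each genotype. S1pr1, the sphingosine 1-phosphate receptor, changed by -1.86 and -1.44 (SE 0.16 for both), Nos3 (endothelial nitric oxide synthase) by -2.16 (SE 0.21) and -1.72 (SE 0.20), and Robo4, a guidance receptor that stabilises vessels, by -1.79 and -1.70 (SE 0.17 for both). Rasip1, needed for vessel lumens, changed by -1.64 and -1.01 (SE 0.16 for both). Egfl7, a secreted matrix protein whose gene holds miR-126, changed by -1.91 and -1.62 (SE 0.21 for both), and Myct1 by -1.53 and -1.30 (SE 0.15 for both). Parts of the exons of Nos3, Rasip1 and Egfl7 overlap other genes, by up to 1040 bases in Nos3, so their counts can hold reads of those genes. The same holds for Cd34 (148 bases), Ecscr (62) and Eng (61).

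Eng (endoglin, a co-receptor for TGF-beta and BMP9, chr2:32646595-32682669) fell the least among the genes that fell in both genotypes. It had 161, 206 and 204 CPM in untreated and 133, 90.8 and 117 CPM in treated control islets, and 199, 196 and 188 CPM and then 109, 166 and 123 CPM in bKO-labelled islets. The groups did not overlap, and the log2 changes were -0.74 (SE 0.17, adjusted p = 0.00248) and -0.55 (SE 0.17, adjusted p = 0.0131). Without treated bKO-labelled replicate 1 the latter was -0.43 and no longer called (adjusted p = 0.051). Per kilobase of exon, Eng had 47 CPM ± 6.3 in untreated control islets, below Plvap, and 28.1 CPM ± 5.2 with cytokines, above Plvap at 16.4 CPM ± 5.5 (SD, n = 3).

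**Figure D2:**
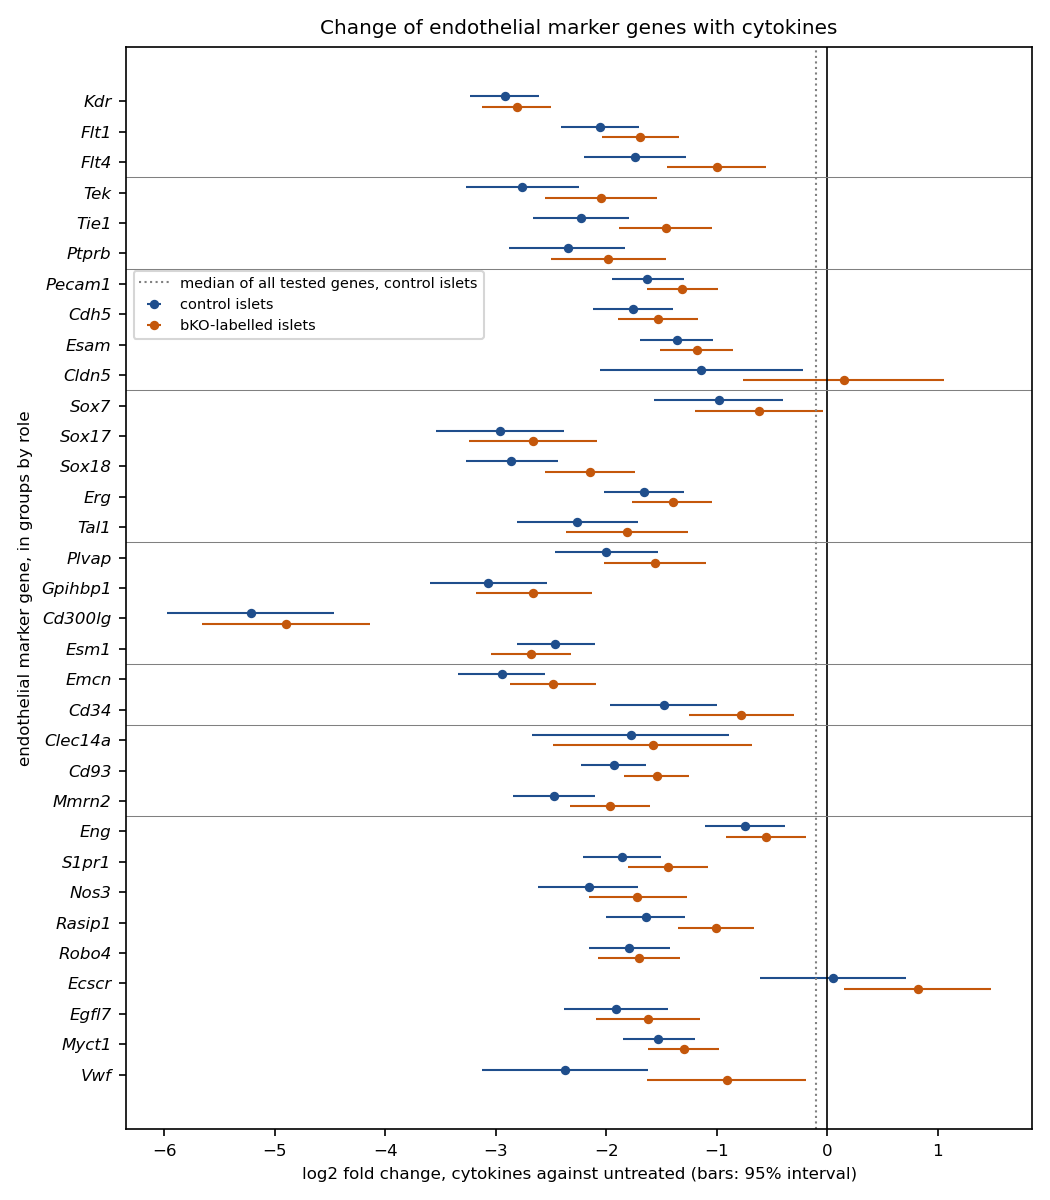
Log2 fold change of the 33 genes with cytokines, with 95% intervals from the edgeR fit (n = 3 libraries a group), in control (blue) and bKO-labelled islets (orange); the dotted line is the median of all tested genes in control islets. Points lie left of 0 for nearly all genes, Cd300lg lies farthest left, and Ecscr lies at 0.05 and 0.82, where the first value turns to -0.18 with library totals alone.

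Ecscr, which encodes a small endothelial surface protein active in migration (chr18:35713086-35722356), was the exception. It had 16.2, 24.4 and 24.3 CPM in untreated and 26.6, 15.7 and 25 CPM in treated control islets, which overlap, and its log2 change was 0.05 (95% interval -0.61 to 0.71, adjusted p = 0.899). In bKO-labelled islets it had 19, 20.1 and 21.2 CPM without and 23.3, 55.5 and 27.3 CPM with cytokines. All treated libraries were above the untreated ones, and replicate 2 stood far above the others. The log2 change of 0.82 (SE 0.30, adjusted p = 0.0337) was 0.39 and not called (adjusted p = 0.115) without replicate 2, and 0.39 and called (adjusted p = 0.0398) with replicate 2 left out of both treated groups. It was also not called with library totals alone (0.60, adjusted p = 0.123) or by limma-voom (0.73, adjusted p = 0.0542). With a replicate block it was 0.71 (adjusted p = 0.0696).

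Tmem173, the gene of the innate immune adaptor STING, lies upstream of Ecscr on the same strand and was looked at after the values were seen. It had 9.01, 13.7 and 14.3 CPM in untreated and 36.1, 22.4 and 36.1 CPM in treated control islets, and 11.5, 11.5 and 13 CPM and then 29.5, 70.4 and 37.9 CPM in bKO-labelled islets. Its log2 changes were 1.35 (SE 0.30, adjusted p = 0.00227) and 1.94 (SE 0.31, adjusted p = 1.9e-04). Treated libraries with more Tmem173 tended to have more Ecscr, and in both genes replicate 2 was the lowest treated control library and the highest treated bKO-labelled one. That order is not particular to these genes, since Flt4, Cd34 and Vwf, among others, had it too. Treated control replicate 2 was the lowest of its group in 30 of 33 members, and treated bKO-labelled replicate 2 the highest in 13. Another gene, 1700066B19Rik, spans Ecscr on the opposite strand and shares 62 exonic bases with it. Whether transcription of either gene has a part in the Ecscr counts was not tested.

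Vwf (von Willebrand factor, stored in endothelial Weibel-Palade bodies and also made by megakaryocytes, chr6:125546774-125686679) was the member with the largest difference between genotypes in its response. It had 40.3, 62.3 and 55.6 CPM in untreated and 12.6, 6.54 and 11.6 CPM in treated control islets, a log2 change of -2.37 (SE 0.34, adjusted p = 1.0e-04). In bKO-labelled islets it had 30.4, 34.8 and 29.2 CPM without and 11.3, 26.9 and 11.9 CPM with cytokines, a log2 change of -0.91 (SE 0.33, adjusted p = 0.0295). Without treated bKO-labelled replicate 2 that change was -1.38, and in 4 of 12 fits that left out a library it was not called, with an adjusted p of up to 0.104. The difference between the responses was 1.46 (SE 0.46, unadjusted p = 0.00878, adjusted p = 0.361 by edgeR) and was not called. Without treated bKO-labelled replicate 2 it was 0.93 (adjusted p = 0.363), and over all fits that left out a library it was 0.93 to 1.67. Platelet markers, from cells that also carry VWF, were low: of 3 tested among 9 listed, none was called in either genotype, while Pf4 had 5.88, 19.4 and 7.26 CPM in the treated bKO-labelled libraries. Their summed level was 4.79 to 7.45 and 5.74 to 10.5 CPM in control and 4.86 to 8.12 and 7.65 to 22.1 CPM in bKO-labelled islets, without and with cytokines. Their part in the Vwf values was not tested.

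**Figure D3:**
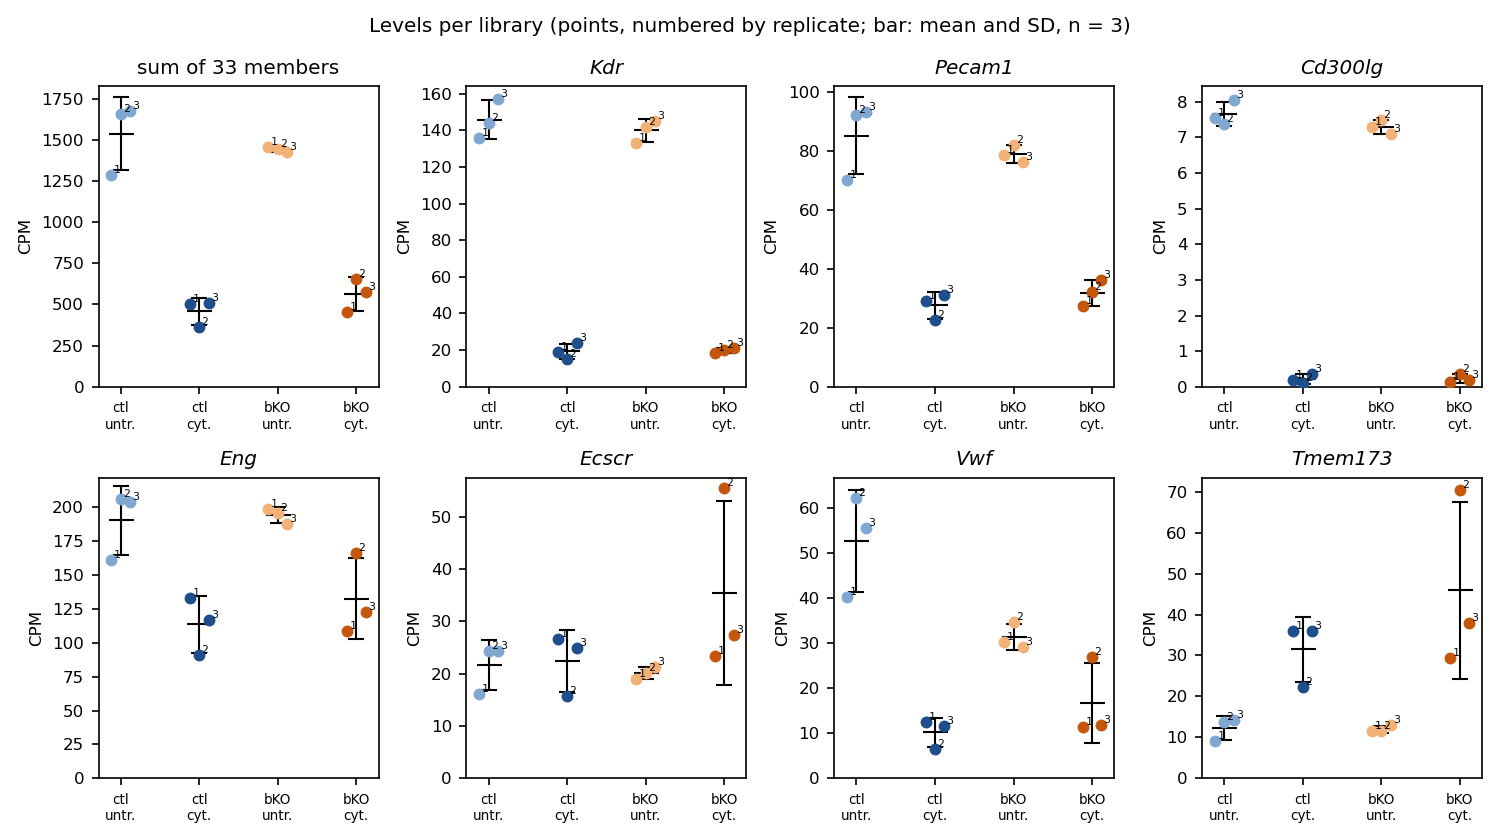
CPM in each library (points, numbered by replicate; lines, mean and SD, n = 3) for the sum of the 33 genes, for 6 of them and for Tmem173, with axes from 0. Treated islets lie far below untreated ones for Kdr, Pecam1 and Cd300lg. Treated bKO-labelled replicate 2 is the highest of its group for Ecscr, Tmem173, Vwf and Eng.

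The members did not all fall by the same amount. For each gene the log2 ratio of its CPM to the median CPM of the other members was taken in each library, and the 6 treated libraries were set against the 6 untreated ones as a description. In 7 genes (Kdr, Tek, Sox17, Sox18, Gpihbp1, Cd300lg and Emcn) every treated ratio was below every untreated one. In 11 genes (Flt4, Pecam1, Esam, Cldn5, Sox7, Cd34, Eng, S1pr1, Rasip1, Ecscr and Myct1) every treated ratio was above. In the other 15 genes the ratios overlapped. A ratio to the median of the other members puts some genes above and some below. The share of all genes with ratios that do not overlap was not computed, so no conclusion is drawn from these counts. For Kdr the ratio was 2.1 to 2.44 without and 1.12 to 1.78 with cytokines, and for Pecam1 it was 1.4 to 1.54 and then 1.83 to 2.18. Unequal change within a library does not depend on the scaling between libraries. The log2 change had little relation to the level. Across the 33 genes its Spearman correlation with CPM per kb in untreated control islets was 0.154 in control and 0.0643 in bKO-labelled islets.

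Libraries of a treated group moved as a whole. Treated control replicate 2 was the lowest of its group in 30 of 33 members and had the deepest sequencing of all libraries, at 107515565 counts. Treated bKO-labelled replicate 1 was the lowest in 28 members, and untreated control replicate 1 in 31. The members are therefore not independent of each other.

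Between genotypes no member was called in any comparison. Without cytokines, bKO-labelled against control islets gave 0 calls among the 33 by edgeR (0.0758% of all genes were called) and 1 member at an unadjusted p under 0.05, as in 5.55% of all genes. The median log2 difference was -0.11, against -0.01 over all genes, and 3 of 33 estimates (9.09%) were positive, against 47.6% of all genes. Acinar markers also leaned this way (1 of 15 positive), and pericyte and stellate markers the other way (10 of 14). The median of the 33 members was -0.23 without untreated control replicate 1, -0.05 without replicate 2 and -0.03 without replicate 3, so it rests on those libraries. Vwf was the 1 member in which every bKO-labelled library was below every control one, as in 7.94% of all genes. Its log2 difference was -0.74 (SE 0.32, adjusted p = 0.857), and -0.75 (adjusted p = 0.0366) once replicate 2 was left out of both treated groups, a choice made after seeing the data. Calls over all genes also became more frequent in that fit, with 27 of 20127 genes lower and 88 higher, against 0 and 15 in the main fit.

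With cytokines, 0 members were called (0.232% of all genes) and 9 had an unadjusted p under 0.05, as in 17.8% of all genes. The median log2 difference was 0.28, against 0.01 over all genes, with 31 of 33 estimates positive (93.9%, against 50.8% of all genes). Estimates were also positive for 14 of 14 pericyte and stellate, 11 of 12 ductal and 14 of 15 macrophage markers. They were positive for 0 of 11 beta cell markers and 1 of 8 alpha, delta and PP cell markers. The counts of these other lists include treated bKO-labelled replicate 2, whose pericyte, ductal and beta cell sums stood apart. They were not recomputed without it. In 2 members, Tie1 and Rasip1, every bKO-labelled library was above every control one, as in 6.94% of all genes. Tie1 had 8.21, 9.56 and 11.4 CPM against 7.43, 6.19 and 7.54 CPM in control islets, a log2 difference of 0.46 (SE 0.19, adjusted p = 0.256). Rasip1 had 9.39, 8.9 and 10.8 CPM against 8.16, 6.41 and 7 CPM, a difference of 0.43 (SE 0.16, adjusted p = 0.218). The median of the set was 0.19, with 28 of 33 positive, without treated bKO-labelled replicate 2, and 0.45 without replicate 1 of that group. It was 0.16, with 25 positive, without treated control replicate 2, and 0.08, with 23 positive, with replicate 2 left out of both treated groups.

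The difference between the cytokine responses was called for 0 members and for 0% of all genes by edgeR. DESeq2 and limma-voom also called no member in any of the 3 comparisons that involve genotype. Of 34801 genes, DESeq2 called 85 lower and 96 higher for this difference. It called 399 and 275 between genotypes with cytokines, and 34 and 92 without. Of 19800 genes, limma-voom called 0 for this difference, 18 lower and 32 higher with cytokines, and 0 and 15 without. By edgeR, 7 members had an unadjusted p under 0.05 for the difference between the responses, as in 10.9% of all genes. The estimate was positive, a smaller fall in bKO-labelled islets, in 32 of 33 genes, with a median of 0.39, against 51.1% positive over all genes. The lean was not particular to the set: 12 of 12 ductal, 14 of 15 acinar and 13 of 14 pericyte and stellate markers were also positive. Of beta cell markers 0 of 11 were positive, and of alpha, delta and PP cell markers 1 of 8. All these genes share the same libraries, and the counts of the other lists were not recomputed without treated bKO-labelled replicate 2. The median of the 33 members was 0.32, with 29 of 33 positive, without treated bKO-labelled replicate 2, and 0.23, with 28 positive, without treated control replicate 2. With replicate 2 left out of both treated groups it was 0.19, with 27 of 33 positive. The next estimates after Vwf were 1.29 for Cldn5 (SE 0.59, adjusted p = 0.459), 0.77 for Ecscr (SE 0.43, adjusted p = 0.518), 0.77 for Tie1 (SE 0.27, adjusted p = 0.387) and 0.74 for Flt4 (SE 0.29, adjusted p = 0.41). Without treated bKO-labelled replicate 2 these were 1.12 for Cldn5, 0.28 for Ecscr, 0.77 for Tie1 and 0.50 for Flt4, none of them called. For Kdr it was 0.11, with a 95% interval of -0.30 to 0.51.

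The ligands of these receptors did not move in 1 direction: Vegfa and Angpt2 fell, by less than Kdr and Tek, whereas Angpt1 rose. Among 7 VEGF ligands and co-receptors, 1 rose and 1 fell in control islets and 1 rose and 2 fell in bKO-labelled islets. Vegfa, the beta cell ligand of KDR, had 454 CPM ± 30 without and 356 CPM ± 21 with cytokines in control islets (SD, n = 3), a log2 change of -0.35 (adjusted p = 0.00584), and -0.42 in bKO-labelled islets. Nrp2, a co-receptor, rose by 0.91 (adjusted p = 8.2e-04) and 1.11. Of 4 genes listed as angiopoietins and TIE partners, 2 rose (Angpt1 and Angptl4) and 1 fell (Angpt2) in each genotype. Angpt1, the activating ligand of TIE2, had 0.407, 0.218 and 0.274 CPM in untreated and 2.9, 1.92 and 2.35 CPM in treated control islets, a log2 change of 2.98 (SE 0.37, adjusted p = 3.4e-05), and 3.17 in bKO-labelled islets. Angpt2, the context-dependent antagonist stored in endothelial cells, changed by -0.37 and -0.68.

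Notch genes active in endothelium fell in 7 of 9 cases in control and 6 of 9 in bKO-labelled islets, and 1 rose in each. Dll4, the Notch ligand of tip cells, had 35.6, 45.2 and 42.4 CPM in untreated and 9.37, 6.95 and 8.6 CPM in treated control islets, a log2 change of -2.31 (SE 0.14, adjusted p = 1.0e-07), and -2.12 in bKO-labelled islets. The ligand Jag2 changed by -1.88 and -2.21, and the endothelial receptor Notch4 by -1.26 and -0.85. Of 16 tested factors of the ETS, GATA, KLF and COUP families and partners, 8 fell and 3 rose in control islets, and 5 fell and 3 rose in bKO-labelled islets. Mef2c fell by 1.75 and 1.46 on the log2 scale, whereas Lmo2, the partner of TAL1, rose by 1.58 and 1.36 and Ets2 by 1.07 and 0.90.

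Of 27 other genes of the endothelial surface, 17 fell and 1 rose in control islets, and 13 fell and 4 rose in bKO-labelled islets. The median log2 changes of -0.75 and -0.56 lay nearer to 0 than those of the 33 markers. Aplnr, the apelin receptor of sprouting vessels, changed by -3.64 (SE 0.34) and -2.42 (SE 0.32), and Adgrl4, an adhesion receptor of endothelium, by -1.93 and -1.71. Cd36, a fatty acid receptor of capillaries that macrophages also carry, rose by 2.07 and 2.02. Several of these genes are also made by other islet cells.

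Adhesion molecules of activated endothelium went the other way, with 3 of 5 tested genes higher and 1 lower in control islets and 3 higher and none lower in bKO-labelled islets. Icam1, which holds leukocytes at the vessel wall, had 12.6, 16 and 17.2 CPM in untreated and 778, 725 and 738 CPM in treated control islets, a log2 change of 5.61 (SE 0.13, adjusted p = 1.5e-10), and 5.62 in bKO-labelled islets. Vcam1 changed by 2.20 (SE 0.29) and 2.90 (SE 0.30). Icam1 and Vcam1 are also made by other cells under these cytokines. Sele (E-selectin, made by endothelium) had 0.611, 1.09 and 1.01 CPM in untreated and 1.44, 1.83 and 2.25 CPM in treated control islets, a log2 change of 1.02 (SE 0.27, adjusted p = 0.0068), while in bKO-labelled islets it changed by 0.61 and was not called (adjusted p = 0.0716). Selp (P-selectin, stored with VWF) fell by 1.39 in control islets (adjusted p = 0.0156) and its change of -0.60 in bKO-labelled islets was not called (adjusted p = 0.242). Of 4 tested lymphatic markers, 2 rose in each genotype, Pdpn by 1.66 and 2.18, and 1 fell in control and 2 in bKO-labelled islets.

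**Figure D4:**
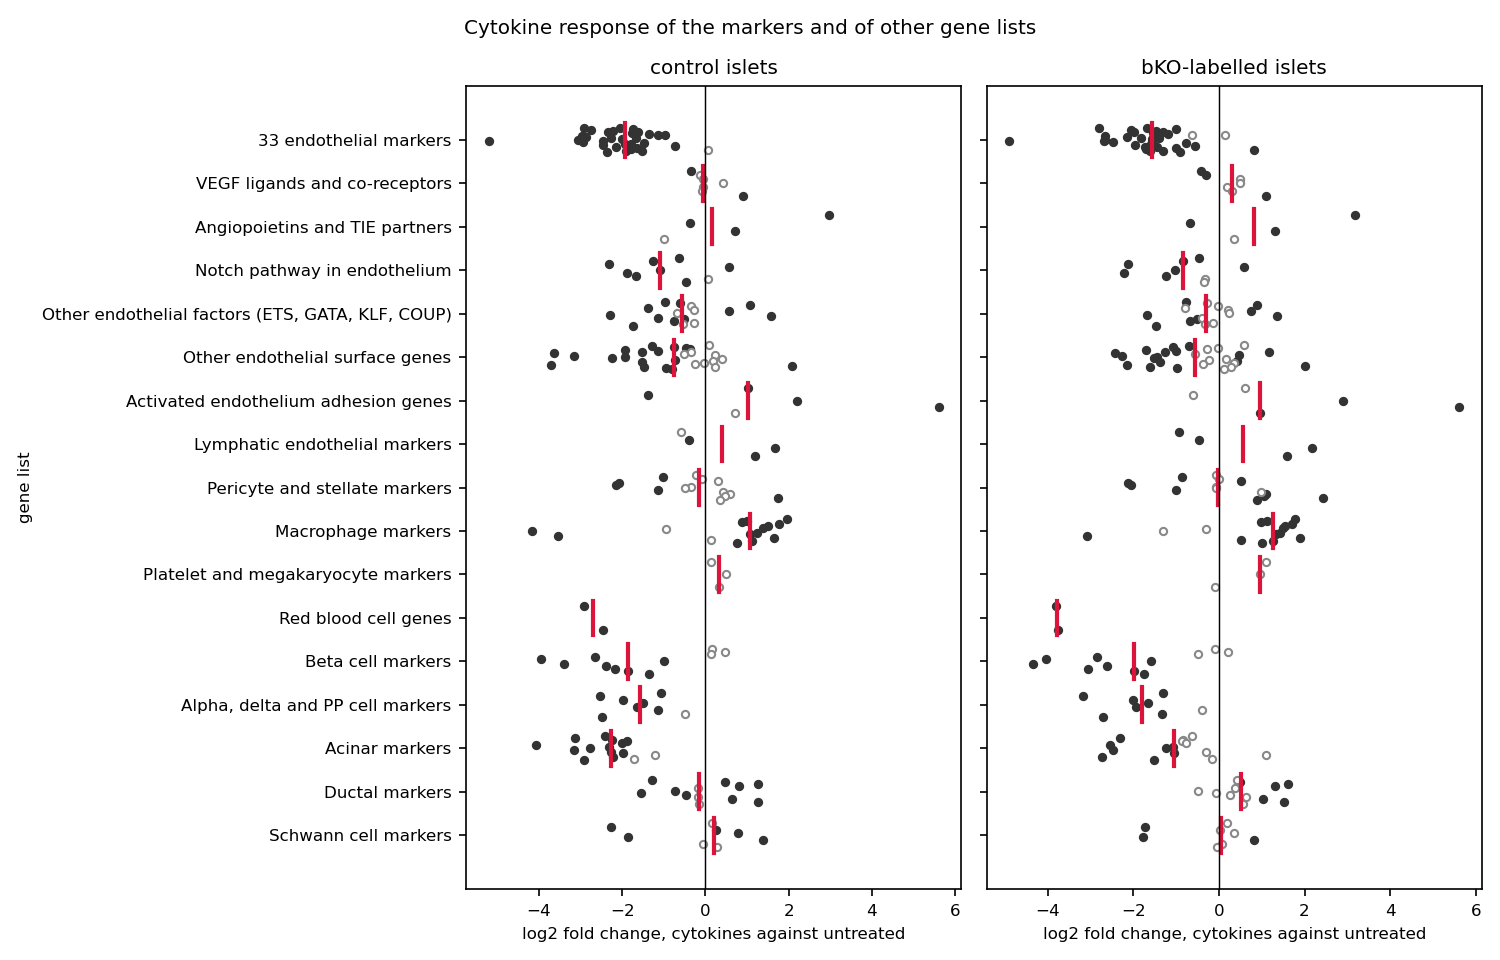
Log2 fold change with cytokines of the 33 endothelial markers and of 16 other gene lists, in control and bKO-labelled islets. Points are genes (filled, adjusted p under 0.05; open, not called) and red bars are medians; the markers' medians are -1.93 and -1.56, and beta, alpha and acinar cell lists also lie left of 0, whereas most macrophage markers lie right.

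Markers of other islet cells moved at the same time. Among pericyte and stellate markers, 1 of 14 tested rose and 4 fell in control islets, and 5 rose and 4 fell in bKO-labelled islets. The channel genes Abcc9 (-2.16 and -2.05) and Kcnj8 (-2.08 and -2.13), which mark pericytes at the capillary wall, were among those that fell. The stellate matrix gene Dcn rose by 1.75 and 2.44, the largest rise of the list. These genes are the extremes of a mixed list. In it, 9 genes were not called in control and 5 in bKO-labelled islets, and the medians were -0.16 and -0.03. The summed level of pericyte and stellate markers was 2080 to 2660 CPM without and 1630 to 4470 CPM with cytokines in control islets. In bKO-labelled islets it was 2370 to 3120 and 3220 to 8280 CPM, where 8280 is treated replicate 2. Macrophage markers rose in 11 of 15 cases in control and 12 of 15 in bKO-labelled islets, with medians of 1.06 and 1.27, while 2 fell in control islets (Cd163 by 4.16 and Cx3cr1 by 3.54 on the log2 scale) and 1 in bKO-labelled islets (Cx3cr1 by 3.08). Their sums were 191 to 222 and 484 to 601 CPM in control and 179 to 249 and 503 to 644 CPM in bKO-labelled islets. Both tested red blood cell genes fell in both genotypes, from sums of 0.219 to 0.789 CPM over the untreated libraries to 0.0235 to 0.0829 CPM over the treated ones.

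Beta cell markers fell in 8 of 11 cases in each genotype (medians -1.86 in control and -1.98 in bKO-labelled islets). Alpha, delta and PP cell markers fell in 7 of 8 (medians -1.56 and -1.79). The medians of the 33 endothelial markers, -1.93 and -1.56, were of similar size. Acinar markers fell in 13 of 15 cases in control islets (median -2.27) and in 8 of 15 in bKO-labelled islets (median -1.06). Ductal markers rose in 5 of 12 cases in each, and fell in 4 in control and in none in bKO-labelled islets. Schwann cell markers rose in 3 of 8 and fell in 2 in control islets, and rose in 1 and fell in 2 in bKO-labelled islets. The part of these shifts in the fall of the endothelial genes was not tested.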

How the data were processed

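Per the labels' protocols, total RNA of islets (RNA integrity over 8) was sequenced on an Illumina NovaSeq. The authors deposited raw counts per gene, in a full and a filtered table. The submitters' processing notes name FastQC 0.11.7, cutadapt 1.16, STAR 2.5.2a, featureCounts 1.6.2, DESeq2 1.30.0 and GRCm38. Neither annotation release nor strand setting is given in the sources used here.

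Groups were taken from the titles. Counts of the full table were filtered with filterByExpr and, after TMM scaling, tested with edgeR 4.0.16 (R 4.3.3), 1 coefficient per group over 12 libraries, with Benjamini-Hochberg adjustment over 19800 genes at 0.05. The script was tested on simulated data. Levels are CPM, or CPM per kb of exon (GENCODE M21). Libraries of a group differed beyond sampling noise (smallest chi-square per degree of freedom 15). Alternatives were other scalings, filters, thresholds, tools (limma 3.58.1, DESeq2 1.42.0) and sample choices. All 33 members are named, and of each other list up to 4 genes with the smallest adjusted p in control islets. Cd163, Dcn and Tmem173 were named after their values were seen. Members and lists were chosen with earlier results of these data known.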

Additional observations from a re-analysis of the deposited data

How the results depend on the processing

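Of 2010 recomputed values for 84 results on single genes, 1969 kept their direction and their side of the threshold, 26 lost a call, 6 gained one and 9 changed sign. The count of members called lower stayed within 30 to 32 in control islets and 26 to 31 in bKO-labelled islets over all alternatives, leaving out each library included. Over all genes, 3184 to 8998 were called lower in control and 3261 to 8693 in bKO-labelled islets. The fewest came with the 2-fold threshold and the most with library totals alone. Replicate numbers of the titles gave no clear pairing: same-numbered libraries had correlations of deviations of -0.21, 0.0473 and 0.0163 in control and -0.104, 0.00396 and 0.11 in bKO-labelled islets. Differently numbered ones had -0.333 to 0.369 and -0.113 to 0.093. With 3 libraries a group, these values cannot show which libraries share a mouse. With a replicate block, 31 and 30 members fell in the 2 genotypes and 0 rose. Of all 19800 genes, that fit called 6357 lower and 4990 higher in control and 6356 and 5278 in bKO-labelled islets. In it Cldn5 in control islets was at -1.11 (adjusted p = 0.0818), and no genotype comparison called a member. Over all genes, the genotype comparison called 0 lower and 12 higher without and 2 and 5 with cytokines, and the difference between the responses 0.

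The 1 member called higher in bKO-labelled islets, Ecscr, was 0 members with library totals alone, with a 2-fold threshold, in a fit of only the groups compared, with the replicate block and by limma-voom, and 0 to 1 when single libraries were left out. The count of members lower in untreated bKO-labelled islets, 0, became 1 (Vwf) with replicate 2 left out of both treated groups. Over all 20127 genes of that fit, 27 were called lower and 88 higher, against 0 and 15 in the main fit. Signs changed for Ecscr in control islets (-0.18 with library totals alone, -0.01 by limma-voom, -0.12 to 0.25 without single libraries), for Cldn5 in bKO-labelled islets (-0.07 with library totals alone, -0.11 to 0.49 without single libraries), and, with replicate 2 left out of both treated groups, for the genotype difference with cytokines of Vwf (-0.06) and Ecscr (-0.02). The cause was not tested. Low counts limit Cd300lg, Tal1, Cldn5 and Clec14a, and in treated libraries also Sox17 (45 to 112 counts) and Gpihbp1 (47 to 90 counts).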
